A study of Mus musculus with 2 samples.

Results

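H19-high cells are the top 10% of cells by H19 UMIs per total UMIs, ranked separately in each of 2 single-cell libraries of cultured mouse hepatocytes. Cells with at least 500 genes and at most 25% mitochondrial UMIs were ranked, and members were chosen by the H19 level alone. They numbered 243 of 2436 cells: 119 of 1191 in expansion medium and 124 of 1245 in induction medium. Primary hepatocytes from C57BL/6 liver had been embedded in growth-factor-reduced matrigel. Both media were based on William's E medium with B27, N2, nicotinamide and N-acetylcysteine, and held the growth factors EGF (25 ng/mL) and HGF (50 ng/mL) together with A83-01 (1 uM), which blocks TGF-beta receptors, and Y27632 (10 uM), which blocks ROCK. Expansion medium also held 3 uM CHIR99021, an inhibitor of GSK3, and 100 ng/mL TNFa. Induction medium held 3 uM dexamethasone, a glucocorticoid, in place of these agents. Each medium has 1 library, so H19-high cells were compared with the other cells of the same library, without a test. The intervals given are 95% intervals of counting error only.

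H19 is a spliced, untranslated RNA that is transcribed from the maternal chromosome. Its neighbour Igf2 encodes a fetal growth factor and is transcribed mainly from the paternal chromosome, and an insulator between them that binds CTCF on the maternal copy lets the same enhancers act on H19 there and on Igf2 on the other copy. Both genes are abundant in fetal liver and are switched off after birth. Meg3 is a maternally expressed RNA of a separate imprinted domain that also holds Dlk1.

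In GRCm38 (GENCODE M21), H19 lies on the minus strand at chr7:142575529-142578143 and is annotated as a lincRNA. Igf2 lies on the same strand at chr7:142650766-142666816. The microRNA gene Mir675 lies inside H19, within exon 1 of its longest transcript, at chr7:142577064-142577147. The libraries counted polyadenylated transcripts and say nothing of mature microRNAs, so the RefSeq sequences (GRCm38.p6) are shown only to place what the H19 transcript carries. The first lines below give the mature arms with the seed, bases 2 to 8, in capitals, and the third gives the hairpin with the mature arms in capitals. The seeds of the arms differ.
mmu-miR-675-5p: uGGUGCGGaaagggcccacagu
mmu-miR-675-3p: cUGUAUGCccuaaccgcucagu
Mir675 hairpin: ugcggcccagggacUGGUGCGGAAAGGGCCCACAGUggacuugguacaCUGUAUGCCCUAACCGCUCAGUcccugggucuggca

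Promoter sequence is shown for Igf2 and Bex1, which were higher in H19-high cells of both media, and for Meg3, which was counted as higher in expansion medium only. The RefSeq-based table listed 4 Igf2 promoters, 2 Meg3 promoters and 1 Bex1 promoter, and the 250 bases before the start are given. Each was searched on both strands for TATAAA and for GGGCGG, which cannot overlap each other, and matches are in capitals. Across 32851 promoters of the same length, 12.4% held TATAAA and 32.7% held GGGCGG. Promoters of a gene are listed in order of coordinate, and only the first of each gene is shown. Igf2 promoters 2 to 4 held 1, 0 and 0 GGGCGG matches and no TATAAA, and Meg3 promoter 2 held neither. The first listed Igf2 promoter at chr7:142657497-142657746 (minus strand) held 2 GGGCGG matches, which begin 100 and 85 bases before the start, and no TATAAA.
Igf2 promoter: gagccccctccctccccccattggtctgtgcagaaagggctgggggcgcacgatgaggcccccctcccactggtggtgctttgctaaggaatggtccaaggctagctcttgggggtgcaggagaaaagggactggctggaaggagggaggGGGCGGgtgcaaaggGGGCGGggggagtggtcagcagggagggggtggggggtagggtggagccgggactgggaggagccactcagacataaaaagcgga
The first listed Meg3 promoter at chr12:109540746-109540995 (plus strand) held 2 overlapping TATAAA matches, 1 on each strand, that begin 29 and 25 bases before the start.
Meg3 promoter: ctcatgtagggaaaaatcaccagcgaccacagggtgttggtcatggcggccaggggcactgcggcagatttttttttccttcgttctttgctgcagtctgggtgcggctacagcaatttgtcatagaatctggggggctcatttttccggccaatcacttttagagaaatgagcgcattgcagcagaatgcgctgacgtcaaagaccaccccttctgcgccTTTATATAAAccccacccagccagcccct
The Bex1 promoter at chrX:136215514-136215763 (minus strand) held 2 GGGCGG matches and no TATAAA.
Bex1 promoter: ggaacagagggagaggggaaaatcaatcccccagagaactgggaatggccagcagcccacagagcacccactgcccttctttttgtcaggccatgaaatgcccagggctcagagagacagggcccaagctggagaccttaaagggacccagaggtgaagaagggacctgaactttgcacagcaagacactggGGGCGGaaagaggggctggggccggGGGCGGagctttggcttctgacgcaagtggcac

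Median depth was 23184 UMIs per kept expansion cell and 6765 per kept induction cell, and 4 barcodes occurred in both libraries. H19-high cells were somewhat shallower than the others in expansion medium, with medians of 19092 and 23816.5 UMIs and of 3637 and 3873.5 genes. In induction medium the medians were 6253.5 and 6898 UMIs. Mitochondrial UMIs made up a median of 6.81% and 6.28% in the expansion cells and 6.80% and 6.85% in the induction cells. All 10 hepatocyte markers were found in H19-high cells of both media. Of the stellate cell and fibroblast markers 9 of 11 were at 0 there, as were 8 of 9 and 9 of 9 macrophage markers in expansion and induction medium and 7 of 8 and 8 of 8 lymphocyte markers. The stellate cell markers Rgs5 and Reln were found. That list summed to 340 and 441 CPM in H19-high and other expansion cells and to 203 and 192 CPM in induction cells. Endothelial markers summed to 34.1 and 40.0 CPM and to 24.6 and 35.2 CPM. Cholangiocyte markers, which include Spp1, summed to 1480 and 1417 CPM in expansion medium. Erythroid markers, of which only Alas2 was found in H19-high cells, summed to 3.48 and 1.68 CPM in H19-high and other cells of expansion medium and to 13.5 and 2.86 CPM in induction medium, a log2 ratio of 2.24 (1.06 to 3.32) on 11 and 24 UMIs. Of the neutrophil markers only S100a8 was found, with 6 UMIs in 1 H19-high induction cell and 0 in all other cells. The part of either in the results was not tested. Scrublet marked 4 and 2 cells as doublets, and 0 of them were H19-high.

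No H19 UMI was found in most cells. In expansion medium 802 cells (67.3%) had 0 H19 UMIs, and in induction medium 1008 (81.0%). The H19-high cells held 93.8% and 97.5% of all H19 UMIs, although they held only 8.79% and 8.84% of all UMIs. Their H19 level ran from 71.1 CPM (UMIs per 1000000 UMIs) through a median of 297 to 34989 in expansion medium. In induction medium it ran from 365 through 3963 to 20478. These levels chose the cells and are given as a description.

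The same rank took in low counts in expansion medium and mostly higher counts in induction medium. In expansion medium 19 H19-high cells had 1 H19 UMI and 46 had 2 to 9, while 42 had 10 to 99 and 12 had 100 or more. In induction medium 2 had 1 UMI, 29 had 2 to 9, 82 had 10 to 99 and 11 had 100 or more. The last H19-high cell of the expansion library had 1 UMI among 14071 (71.07 CPM), and the next cell outside had 1 among 14076 (71.04 CPM). In the induction library the cells on either side of the threshold had 2 UMIs each, at 365 and 347 CPM. The 10 cells highest in H19 held 49.2% of the library's H19 UMIs in expansion medium and 19.7% in induction medium.

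**Figure D1:**
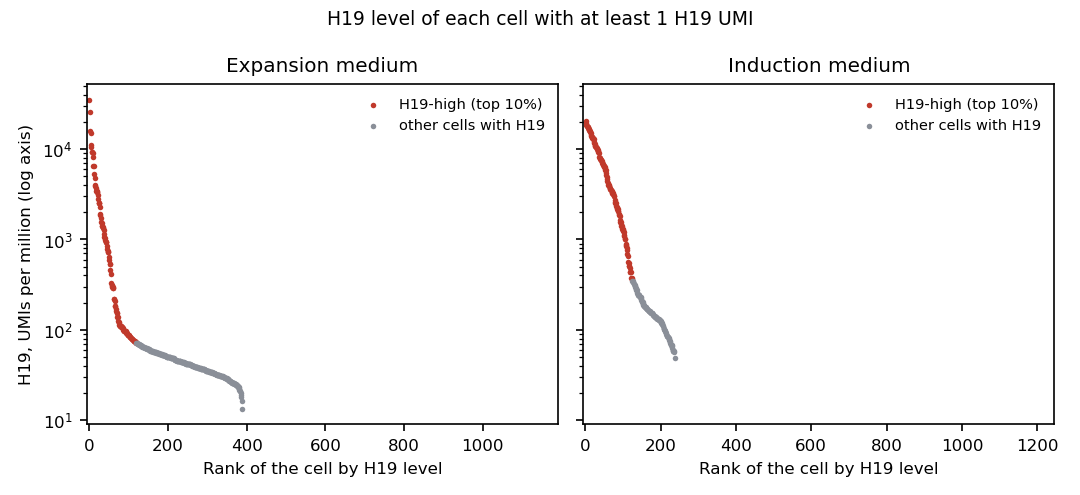
H19 level of each cell with at least 1 H19 UMI (y, CPM, log axis) against the rank of the cell in its library (x), with H19-high cells in red. The expansion curve bends near 100 CPM, so that its red points reach into the long tail of cells with 1 or 2 UMIs, while the induction threshold lies at 365 CPM.

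The ranking was repeated on 1 of 2 random parts of each cell's UMIs and H19 was read in the other part, which the ranking had not used. The cells so chosen had 1763 CPM of H19 against 15.3 CPM in the rest in expansion medium, and 89 of the 119 were also among the H19-high cells. In induction medium the values were 6176 and 20.7 CPM, with 117 of 124 cells shared. H19 was thus high again in UMIs that had no part in choosing the cells. Free RNA can place single UMIs in cells that do not express a gene. The cluster lowest in H19 had 10.2 CPM in expansion and 7.83 CPM in induction medium, and the part of free RNA in the cells with 1 or 2 H19 UMIs was not tested.

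Igf2 had the largest ratio in both media among the genes of at least 50 CPM that were higher in H19-high cells. In expansion medium it stood at 2964 CPM in the summed H19-high cells and 561 CPM in the others, a log2 ratio of 2.40 (2.36 to 2.44). In induction medium it stood at 4144 and 195 CPM, a log2 ratio of 4.41 (4.33 to 4.50). H19-high cells held 33.7% of the Igf2 UMIs of the expansion library and 67.4% of those of the induction library. Igf2 UMIs were not used to choose the cells, although earlier results on H19 and Igf2 in these libraries were known when the cells were defined.

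Per cell, Igf2 in H19-high cells of expansion medium ran from 0 through a median of 1421 to 23238 CPM, against 0, 97.7 and 11228 CPM in the others. In induction medium it ran from 0 through 1827 to 28531 CPM, against 0, 0 and 12017 CPM. The groups overlapped in both media, and the highest H19-high cells lay above all other cells. In induction medium the third quartile of the other cells was 0 CPM, and the first quartile of the H19-high cells was 123 CPM. After each cell was thinned to 2000 UMIs, an Igf2 transcript was found in 62.2% (52.8 to 70.9, exact binomial) of H19-high cells and 32.7% (29.9 to 35.6) of other cells in expansion medium; without thinning the shares were 87.4% and 85.4%. In induction medium the thinned shares were 68.9% (59.8 to 76.9) and 11.8% (9.97 to 13.9), and the unthinned shares 75.8% and 21.8%. Thinning left out 2 H19-high and 12 other cells of the induction library and 0 of the expansion library.

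High H19 and high Igf2 coincided more often than the shares over all cells, but in only some of the cells. Of the top 10% of cells by Igf2, 45 (37.8%) were also H19-high in expansion medium and 72 (58.1%) in induction medium, while the rule makes 10% of all cells H19-high. Conversely 54 (45.4%) and 47 (37.9%) of the Igf2-top cells had 0 H19 UMIs, against 67.3% and 81.0% of all cells. Among H19-high cells, 15 in expansion medium and 30 in induction medium had no Igf2 UMI. The per-cell rank correlation of H19 with Igf2 after thinning was 0.22 over 1191 expansion cells and 0.48 over 1231 induction cells, in each case the highest of the genes of at least 50 CPM. These cells share a library, and the coefficients are a description. The next genes by this measure were Wfdc21 at 0.14 and C3 at 0.11 in expansion medium, and C3 at 0.24 and Cps1 at 0.22 in induction medium.

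**Figure D2:**
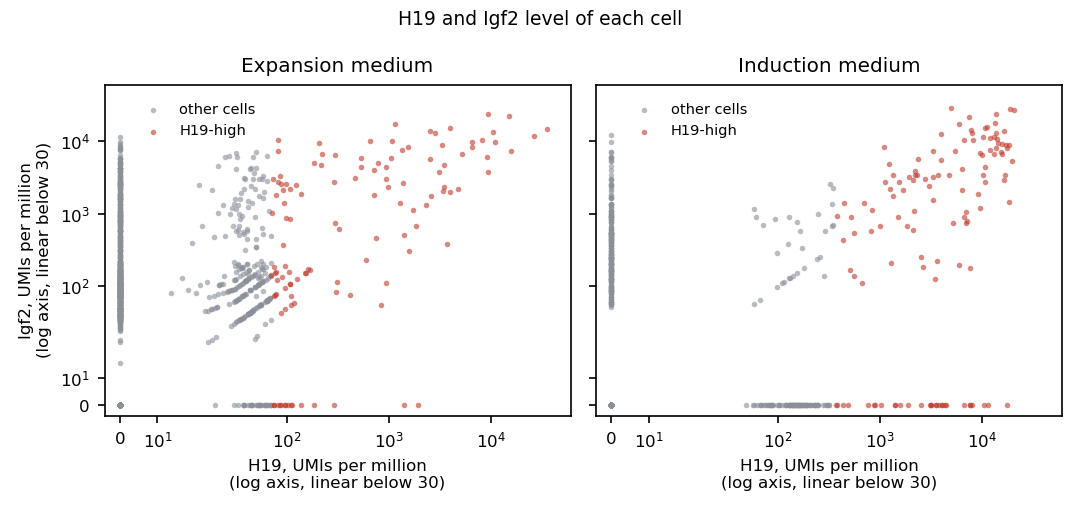
Igf2 level against H19 level of each cell (both axes in CPM, log with a linear part below 30), with H19-high cells in red. Cells rich in both transcripts lie at the upper right in both media, 30 H19-high induction cells lie on the line of 0 Igf2, and many Igf2-rich cells lie on the line of 0 H19.

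Within the H19-high cells, those with more H19 UMIs had more Igf2. In expansion medium Igf2 was at 1012 CPM in the H19-high cells with 1 H19 UMI, 1603 with 2 to 9, 3436 with 10 to 99 and 8333 with 100 or more. In induction medium the same classes gave 257, 1189, 4077 and 9922 CPM. No such step was seen among the other cells. Cells with 0 H19 UMIs and cells with some H19 below the top 10% had 556 and 573 CPM of Igf2 in expansion medium and 198 and 167 CPM in induction medium. Cells with 10 or more H19 UMIs, 54 in expansion and 93 in induction medium, gave log2 ratios of Igf2 of 2.98 and 4.65; this limit was chosen after the data had been seen.

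**Figure D3:**
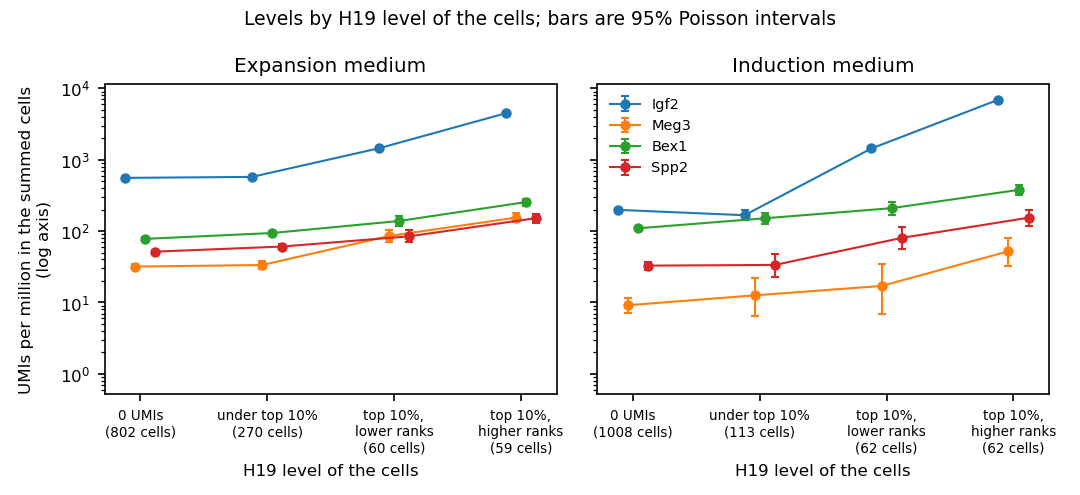
Levels of Igf2, Meg3, Bex1 and Spp2 in the summed UMIs of cells with 0 H19 UMIs, with H19 below the top 10%, and in the lower- and higher-ranked part of the H19-high cells (y, CPM, log axis, 95% Poisson intervals). Igf2 is at 556, 573, 1441 and 4457 CPM in expansion medium and at 198, 167, 1434 and 6906 CPM in induction medium.

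Meg3 was the other imprinted transcript counted as higher in expansion medium. It was at 120 CPM in H19-high and 32.3 CPM in other cells of expansion medium, a log2 ratio of 1.89 (1.70 to 2.08). In induction medium it was at 34.4 and 9.54 CPM, a log2 ratio of 1.85 (1.18 to 2.49) that rests on 28 UMIs in H19-high cells; there Meg3 fell short of 20 CPM over the library and was not counted. Before thinning, 49 of 119 and 17 of 124 H19-high cells had a Meg3 UMI. After thinning the shares were 19.3% (12.7 to 27.6) against 6.34% (4.96 to 7.97) in expansion medium and 5.74% (2.34 to 11.5) against 1.71% (1.03 to 2.66) in induction medium.

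A gene was counted as higher or lower where it had at least 20 CPM over the library, a ratio of at least 1.5 and an interval that excluded a ratio of 1. By this rule 48 of 4155 genes (1.16%) were higher and 44 (1.06%) lower in H19-high cells of expansion medium, and 271 of 4714 (5.75%) were higher and 261 (5.54%) lower in induction medium. Among imprinted genes 9 of 39 listed reached 20 CPM in expansion medium and 2 were higher, Igf2 and Meg3. In induction medium 8 reached it and 2 were higher, Igf2 and Slc38a4, a paternally expressed amino acid transporter, at 273 and 174 CPM. The Slc38a4 ratio, 1.57, was near the limit of 1.5. The list medians were 0.06 and 0.10 on the log2 scale, against 0.00 and -0.01 over all genes counted. Gnas, Igf2r, Ube3a, Cd81 and Kcnq1ot1 were counted in neither direction in either medium. Dlk1, which shares Meg3's domain, stayed below 20 CPM, at 3.10 and 1.87 CPM in expansion and 8.60 and 2.27 CPM in induction medium.

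Igf2 signals through the receptors encoded by Igf1r and Insr, is cleared by Igf2r and is bound by IGF-binding proteins. Igf1r had 0 UMIs in H19-high cells of both media, and 5 and 0 UMIs in the others. On the list of this axis 7 of 19 genes reached 20 CPM in expansion medium, of which 2 were higher and 0 lower, with a median of 0.32. Igfbp1, a secreted binding protein of hepatocytes, was at 178 CPM in H19-high and 71.6 CPM in other expansion cells, a log2 ratio of 1.32 (1.17 to 1.47). Its levels in induction medium were 708 and 587 CPM, a log2 ratio of 0.27. There 8 genes reached 20 CPM, 1 was higher and 2 were lower, with a median of 0.29. The lower ones were Igfbp3 at 8.60 and 68.0 CPM and Igfbp7 at 112 and 264 CPM. Igf2r was at 27.9 and 22.4 CPM in expansion and 34.4 and 23.4 CPM in induction medium, and Insr at 27.5 and 24.5 and at 65.1 and 55.8 CPM, with 0 of these counted as different.

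Of the genes held to control H19 and Igf2, 11 of 25 reached 20 CPM in expansion medium, 12 did so in induction medium, and 0 were counted in either direction. Their medians were 0.13 and 0.07. Ctcf, which binds the insulator, was at 24.0 and 23.9 CPM and at 27.0 and 25.3 CPM in H19-high and other cells. Zbtb20, a repressor of Afp, was at 112 and 118 CPM in expansion medium and at 156 and 163 CPM in induction medium. Zhx2, which restrains H19 and Afp after birth, stayed below 20 CPM. The largest ratio among the counted genes of expansion medium was that of Hnf4a, a hepatocyte nuclear receptor, at 134 and 89.5 CPM, just below a ratio of 1.5. Among partners of H19 and targets of miR-675 and let-7, 0 of 4 genes in expansion medium and 2 of 8 lower in induction medium were counted, with medians of -0.00 and -0.07. The 2 were Hmga2, a chromatin protein of fetal cells, at 7.37 and 24.2 CPM and Ccnd2, a G1 cyclin, at 54.1 and 144 CPM.

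Few genes of the fetal liver list reached the minimum, and those that were counted went both ways. In expansion medium 6 of 24 fetal liver genes reached 20 CPM, 1 was higher and 1 lower, with a median of -0.08. In induction medium 7 reached it, 1 was higher and 3 were lower, with a median of -0.58. The higher gene was Bex1, a small adaptor protein gene on the X chromosome, in both media: 197 and 82.4 CPM in expansion medium, a log2 ratio of 1.26 (1.12 to 1.40), and 293 and 114 CPM in induction medium, a log2 ratio of 1.36 (1.15 to 1.56). Pkm, the pyruvate kinase of fetal and dividing cells, was lower in both, with log2 ratios of -0.66 and -1.19. Afp, the fetal serum protein, stayed below 20 CPM at 4.65 and 5.33 CPM in expansion medium and 19.7 and 5.36 CPM in induction medium.

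Bex1 was carried by many cells. After thinning, a Bex1 transcript was found in 26.1% (18.4 to 34.9) of H19-high and 13.8% (11.8 to 16.0) of other expansion cells, and in 37.7% (29.1 to 46.9) and 12.4% (10.6 to 14.5) of induction cells. The unthinned shares were 63.0% and 52.8%, and 55.6% and 26.2%. Among H19-high cells of expansion medium, 5 cells held 28.5% of the Bex1 UMIs.

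Of 3925 genes that could be counted in both media, 13 (0.331%) were higher and 16 (0.408%) lower in H19-high cells of both, and 0 were higher in one medium and lower in the other. The shared higher genes made up 32.5% of the 40 higher genes of expansion medium and 7.43% of the 175 of induction medium among these 3925. Besides Igf2 and Bex1 they included several products that hepatocytes secrete. Spp2, a secreted phosphoprotein, was at 118 and 54.1 CPM in expansion and 117 and 32.9 CPM in induction medium. With cells ranked after thinning, its log2 ratio in expansion medium was 0.62 (-0.14 to 1.32), an interval that includes 0. Wfdc21, a small secreted protein of the whey acidic family, was at 655 and 278 CPM and at 3457 and 2036 CPM. Apoa2, an apolipoprotein of high-density lipoprotein, was at 67.0 and 31.4 CPM and at 4384 and 2191 CPM. After thinning, an Apoa2 transcript was found in 6.72% (2.95 to 12.8) of H19-high and 4.29% (3.16 to 5.68) of other expansion cells, intervals that overlap. The acute phase genes Crp and Itih3 were also among the shared higher genes, with log2 ratios of 0.75 and 0.95 in expansion and 1.19 and 0.75 in induction medium, as was Cpn2, a carboxypeptidase subunit of plasma, with 0.67 and 0.77.

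Most secreted proteins were not counted as different. Of 23 secreted hepatocyte proteins counted in expansion medium, 2 were higher, Apoa2 and Kng1, and of 25 in induction medium 3 were higher, Apoa2, Serpinc1 and Plg, with 0 lower in either and medians of 0.17 and 0.13. Trf, which encodes transferrin, was at 18098 and 14482 CPM in expansion medium, a ratio below 1.5. Alb, which encodes albumin, was at 2002 and 1712 CPM in expansion medium and 21600 and 19241 CPM in induction medium. Among acute phase proteins 2 of 16 were higher in expansion and 7 of 17 in induction medium, with medians of 0.25 and 0.45.

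Genes of the cytoskeleton and the cell surface were among the 16 that were lower in both media. Tmsb4x, which binds actin monomers, was at 412 and 703 CPM in expansion medium and 541 and 1004 CPM in induction medium. In expansion medium its log2 ratio of -0.77 was short of the limit under other choices: -0.02 (-0.27 to 0.22) with cells ranked after thinning, -0.28 with the top 20% of cells and -0.08 (-0.29 to 0.12) within cluster 1. The transcription factor Sox4, active in ductal and progenitor cells, was at 136 and 229 CPM and at 51.6 and 140 CPM. Marcksl1 and Marcks, membrane proteins that bind actin, had log2 ratios of -1.14 and -0.81 in expansion and -1.30 and -2.01 in induction medium. Tuba1a, an alpha-tubulin gene, was at 25.9 and 39.4 CPM and at 7.37 and 54.7 CPM. Itga3, Tspan3, Sh3bgrl3, Eva1b and Tead1 had log2 ratios between -0.61 and -0.93 in expansion medium and between -0.74 and -2.37 in induction medium. Sprr1a, a cornified envelope gene, was at 22.8 and 76.6 CPM in expansion medium and had 1 UMI in the H19-high cells of induction medium, where the others had 1020.

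Sprr1a, S100a6, Spp1, Igfbp3 and Tuba1a, all lower in H19-high cells of induction medium, lead a cluster that held 0 H19-high cells. Cells were clustered without H19, Igf2 and Meg3. Cluster 4 of induction medium (88 cells, led by these genes) and cluster 4 of expansion medium (34 cells, led by Sprr1a and Sh3bgrl3) held 0 H19-high cells, which allows shares of up to 4.11% and 10.3% (exact binomial). Their median depths, 10364.5 and 30689.5 UMIs, were the highest of the clusters of each library. A deeper cell needs more H19 UMIs to pass the threshold, and the binomial limits do not cover this. S100a6, a calcium-binding protein gene, had 0 UMIs in the 124 H19-high cells and 165 CPM in the others, so that it was at least 44.8-fold lower against a floor of 3 UMIs over the group; the counting limit of its log2 ratio was -5.19. When the top 10% were taken within each of 5 bins of depth, the log2 ratio of S100a6 was -1.13, and with the top 20% it was -0.85. Spp1, which encodes osteopontin, was at 51.6 and 721 CPM, a log2 ratio of -3.80 (-4.28 to -3.37). Spp1 did not reach a ratio of 1.5 when ranked within bins of depth, at -0.41 (-0.56 to -0.27), or with the top 20%, at -0.55 (-0.66 to -0.45). On the list of dedifferentiation and cytoskeleton genes 12 of 19 were lower in induction medium, with a median of -0.89, and 2 of 17 in expansion medium, with a median of -0.09. Without cluster 4 the median of induction medium was -0.35, the log2 ratios of Spp1 and S100a6 were -1.77 and -2.27, and the lower genes fell in number from 261 to 154, while Igf2 gave 4.40. Tuba1a at -1.11 (-2.58 to 0.06) and Sprr1a at -1.55 (-6.91 to 1.05) then had intervals that include 0. Leaving out these clusters was a choice made after the data had been seen.

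**Figure D4:**
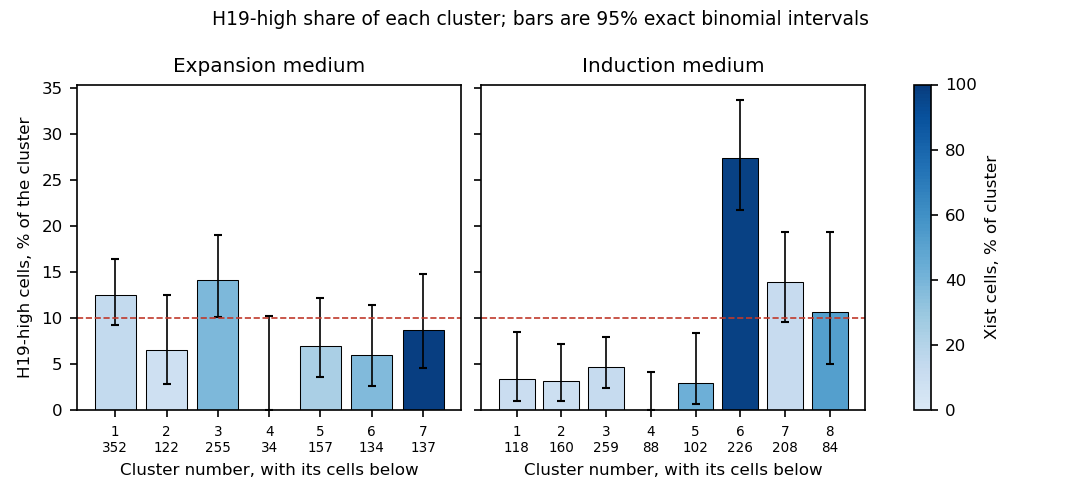
Share of H19-high cells in each cluster (y, %, bars with 95% exact binomial intervals) for clusters found without H19, Igf2 and Meg3 (x, with their cells), shaded by the share of cells with Xist. The dashed line marks the 10% set by the rule, cluster 6 of induction medium reaches 27.4%, and cluster 4 is at 0 in both media.

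In expansion medium the H19-high cells were spread over 6 of 7 clusters. Cluster 1 (352 cells, led by Serpina6 and Serpina1e) held 44 of them, 12.5% (9.23 to 16.4) of its cells. Cluster 3 (255 cells, led by Hmgb2, Cenpa and Stmn1, genes of dividing cells) held 36, or 14.1% (10.1 to 19.01). In induction medium 62 of the 124 lay in cluster 6 (226 cells, with Tat, Cps1, Cyp2c29 and Xist among its leading genes), 27.4% (21.7 to 33.7) of its cells. A further 29 lay in cluster 7 (208 cells, led by Saa2 and Orm1, acute phase genes), or 13.9% (9.54 to 19.4). Among the nearest neighbours of an H19-high cell, 15.4% were H19-high in expansion medium and 25.2% in induction medium, against 8.27% and 7.30% among those of other cells.

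Cells of both sexes were present, a point the labels do not give. Xist, transcribed from the inactive X chromosome of females, and 4 Y-linked genes (Ddx3y, Eif2s3y, Kdm5d, Uty) split both libraries into cells with more Xist UMIs, called Xist cells here, and cells with more Y-linked UMIs, called Y cells. In neither class were 86 expansion cells and 308 induction cells (24.7% of the library) that had neither transcript, of which 10.5% and 3.57% were H19-high, and 30 and 6 cells with equal counts. Both kinds of UMI occurred in 71 of the Xist and 174 of the Y cells of expansion medium and in 10 and 6 of those of induction medium. Expansion medium had 396 Xist and 679 Y cells, of which 37 (9.34%, 6.66 to 12.6) and 71 (10.5%, 8.26 to 13.0) were H19-high. Induction medium had 422 Xist and 509 Y cells, of which 84 (19.9%, 16.2 to 24.0) and 28 (5.50%, 3.69 to 7.85) were H19-high. Xist cells thus made up 67.7% of the H19-high cells of induction medium and 33.9% of its cells. Their summed H19 level was 1136 CPM against 261 CPM in Y cells, while in expansion medium it was 108 against 206 CPM. Sex, animal of origin and any difference between hepatocyte isolations cannot be told apart, and the main gene groups of induction medium are given again within each class.

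The Igf2 difference was present in both classes of cells. Among Xist cells of induction medium, Igf2 was at 3934 CPM in the 84 H19-high and 233 CPM in the 338 others. Among Y cells it was at 4015 CPM in 28 and 221 CPM in 481, and 5 of the 28 cells held 67.8% of their Igf2 UMIs. The top 10% were also chosen again within each class. In induction medium this took 42 Xist cells down to 4010 CPM of H19 and 50 Y cells down to 153 CPM. The limit over the library was 365 CPM, so the classes were cut at unlike H19 levels. In expansion medium the limits were 67.7 and 76.0 CPM. With cells so chosen, the log2 ratios of Igf2 were 4.15 and 3.59 in Xist and Y cells of induction medium and 2.46 and 2.48 in those of expansion medium. For Meg3 they were 1.61 (-0.45 to 3.28, on 4 UMIs in H19-high cells) and 1.94 (1.10 to 2.72), and 2.02 and 2.15, so that the Meg3 interval of induction Xist cells includes 0. For Bex1 they were 0.87 and 1.21, and 0.94 and 1.53. Spp2 gave 1.81 and 1.76, and 1.08 and 1.31. Within cluster 6 alone, with 62 H19-high and 164 other cells nearly all of them Xist cells, Igf2 gave 5.25, Meg3 3.13 (-0.51 to 8.85) and Bex1 0.95, a comparison added after the data had been seen. Within cluster 1 of expansion medium, with 44 and 308 cells, they gave 2.05, 1.99 and 1.21.

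**Figure D5:**
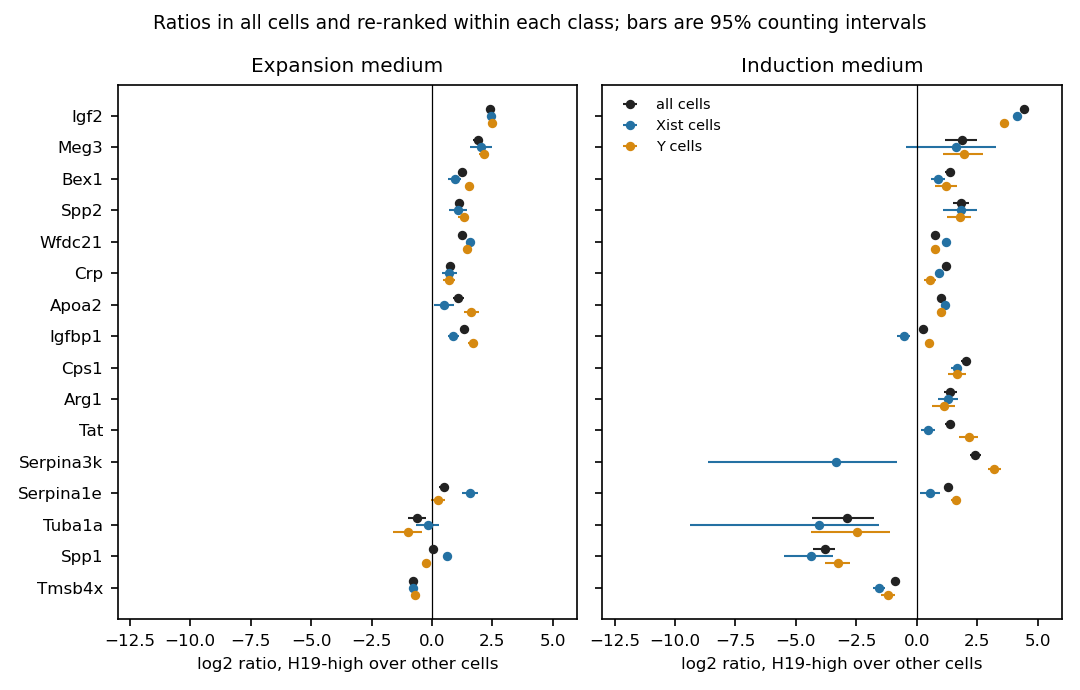
Log2 ratios of H19-high over other cells (x) for named genes (y), in all cells (black) and with the top 10% chosen again among Xist cells (blue) or Y cells (orange), with 95% counting intervals. Genes below 10 CPM in a library and ratios with a count of 0 are left out. Igf2 lies right of 0 in all 6 comparisons, and Serpina3k lies on opposite sides of 0 in the classes of induction medium.

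Several calls of induction medium were not made when the top 10% were chosen again among Xist cells (4.97% of genes higher, 5.92% lower) or Y cells (2.83% higher, 4.69% lower). The lowest H19 level taken was 4010 CPM among Xist and 153 CPM among Y cells. Values of the classes are therefore not set side by side at a like H19 level. Of 8 imprinted genes 1 was higher in each class, and Slc38a4 gave log2 ratios of 0.51 and 0.30, short of the limit in both. Acute phase proteins were higher in 10 of 16 cases among Xist cells and 3 of 17 among Y cells, with medians of 0.89 and 0.32; Crp gave 0.93 and 0.55. Of the secreted proteins 6 of 25 were higher and 2 lower among Xist cells, and 3 of 24 were higher among Y cells. Apoa2 gave 1.18 and 1.00, Serpinc1 1.24 and 1.08, and Wfdc21 1.20 and 0.73, while Plg gave 1.30 and 0.55. Of the IGF axis 1 of 8 genes was higher and 2 lower in each class. Fetal liver genes were higher in 2 and lower in 3 of 8 cases among Xist cells, and higher in 1 and lower in 2 of 7 among Y cells; Pkm gave -2.44 and -0.44 (-0.94 to 0.03). Of the regulators of H19 and Igf2 1 of 15 was higher among Xist cells and 0 of 10 were counted among Y cells.

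Several enzymes of amino acid breakdown and the urea cycle were higher in H19-high cells of induction medium. Of 10 list members counted, 6 were higher and 0 lower, with a median of 0.79, and in expansion medium 0 of 3 were counted, with a median of 0.02. Cps1, which commits ammonia to the urea cycle, was at 446 and 110 CPM, a log2 ratio of 2.02 (1.84 to 2.20). Arg1, which releases urea, was at 181 and 69.4 CPM, Mat1a, which makes S-adenosylmethionine, at 587 and 301 CPM, and Bhmt, which remethylates homocysteine, at 903 and 529 CPM. Tat, a tyrosine aminotransferase that glucocorticoids induce, was at 340 and 133 CPM. After thinning, a Cps1 transcript was found in 43.4% (34.5 to 52.7) of H19-high and 14.2% (12.2 to 16.4) of other cells, and the unthinned shares were 63.7% and 25.2%.

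These values differed with the class and cluster of the cells, and the classes were cut at unlike H19 levels (4010 CPM in Xist and 153 CPM in Y cells). With the top 10% chosen again among Xist cells, 4 of 10 of these enzymes were higher, with a median of 0.29, and among Y cells 5 of 10, with a median of 0.83. Cps1 gave log2 ratios of 1.64 and 1.66 in Xist and Y cells, Arg1 1.30 and 1.13, Mat1a 1.07 and 0.83, and Bhmt 0.71 and 0.94. Tat gave 2.14 in Y cells and 0.46 in Xist cells, the latter short of the limit. Within cluster 6 Cps1 gave 0.61 and Arg1 0.40, and Tat was on the other side of 0 at -0.47. The list median there was -0.30.

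Serpina3k, a serine protease inhibitor of liver, had log2 ratios of opposite sign in the classes. Over all induction cells it was at 322 CPM in H19-high and 60.3 CPM in other cells, a log2 ratio of 2.42 (2.20 to 2.63). The H19-high Y cells held 858 CPM against 68.9 CPM in other Y cells, and 5 of these 28 cells held 65.3% of the UMIs. In Xist cells the values were 19.3 and 37.1 CPM, and 5 of the 338 other Xist cells held 81.6% of their 98 UMIs. The share of cells with a Serpina3k UMI was higher in H19-high cells of both classes. It was 7.14% against 4.44% in Xist cells and 53.6% against 12.7% in Y cells. With the top 10% chosen again in each class the log2 ratios were 3.20 in Y cells and -3.32 (-8.64 to -0.81) in Xist cells. The Xist value rests on few UMIs. The 84 H19-high Xist cells of the library ranking, which include the 42 chosen again, held 10 Serpina3k UMIs in 6 cells. The classes were also cut at unlike H19 levels, 153 CPM in Y and 4010 CPM in Xist cells. Serpina3k belongs to a family of near-identical genes, so the split of its UMIs among copies is uncertain.

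Genes of dedifferentiation and the cytoskeleton were lower in both classes of induction cells. On the list of dedifferentiation and cytoskeleton genes 12 of 19 were lower among Xist cells and 15 of 20 among Y cells, with medians of -1.12 and -0.84. Spp1 gave log2 ratios of -4.38 and -3.24, Tuba1a -4.06 and -2.49, and Igfbp3 -4.20 and -3.21. Both classes still held cells of cluster 4 (28 Xist and 45 Y cells), which these 3 genes help to lead. Choosing cells within a class therefore does not remove that cluster. Within cluster 6 the list median was 0.06 and Spp1 gave 0.77. Markers of cholangiocytes, a list that includes Spp1, summed to 161 CPM in H19-high and 804 CPM in other cells, with Krt19, Krt7, Cldn4 and Muc1 at 0 in H19-high cells. Per cell this sum ran from 0 through a median of 148 to 1320 CPM in H19-high cells and from 0 through 117 to 36322 CPM in the others.

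Several genes of cell division were higher in H19-high cells of expansion medium. On the G2/M list 6 of 20 genes reached 20 CPM and 4 of these were higher, with a median of 0.74. On the S phase list 1 of 8 was higher, with a median of 0.34. The G2/M median was short of a ratio of 1.5 under other choices. It was 0.45 with at least 1000 genes and at most 10% mitochondrial UMIs, and 0.27 with the top 20% of cells. Top2a, a topoisomerase of dividing cells, was at 80.1 and 41.4 CPM, a log2 ratio of 0.95 (0.73 to 1.17), Ccna2, a mitotic cyclin, at 38.3 and 21.7 CPM, and Rrm2, a subunit of ribonucleotide reductase, at 55.4 and 29.99 CPM. In 23.5% (16.2 to 32.2) of thinned H19-high cells at least 2 G2/M genes were found, against 11.4% (9.54 to 13.4) of other cells. The unthinned shares were 54.6% and 45.6%. In induction medium 0 of 3 G2/M genes were counted, with a median of -0.67, and the thinned shares were 6.56% (2.87 to 12.5) and 6.85% (5.44 to 8.50).

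Their counts differed between Xist and Y cells of expansion medium. All 6 G2/M genes were higher when the top 10% were chosen again among Y cells (4.43% of genes higher, 1.5% lower), with a median of 1.09. Among Xist cells (1.51% higher, 4.33% lower) 1 of 6 was higher, with a median of 0.46. Top2a gave log2 ratios of 1.35 in Y cells and 0.60 in Xist cells, and the difference between the classes was not tested. The share of Xist cells in cluster 3, led by genes of dividing cells, was 38.0%.

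Genes of cholesterol synthesis had positive medians in both media, with most of them short of a ratio of 1.5. In expansion medium 0 of 17 genes were counted, with a median of 0.39. In induction medium 6 of 17 were higher, with a median of 0.47. Hmgcs1, which makes HMG-CoA, was at 285 and 194 CPM in expansion medium and 280 and 169 CPM in induction medium. With the top 10% chosen again, 3 of 17 were higher among Xist cells of induction medium, with a median of 0.36, and 1 of 17 was higher and 1 lower among Y cells, with a median of 0.15. There Hmgcs1 gave log2 ratios of 1.01 and 0.09.

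Some of the largest ratios rested on few cells. The chemokine gene Ccl5 was at 10.8 CPM in H19-high and 66.2 CPM in other expansion cells, a log2 ratio of -2.61 (-3.20 to -2.07), but 5 of the other cells held 65.6% of its UMIs, and a UMI was found in 14.3% and 17.7% of cells. When cells were ranked after thinning, the log2 ratio of Ccl5 was 0.12. Sprr1a in expansion medium gave -0.77 without cluster 4, 0.29 among Xist cells and 0.35 with the top 20% of cells. It was short of the limit also with at least 1000 genes and at most 10% mitochondrial UMIs, at -0.02, within bins of depth, at -0.46, and with thinning before ranking, at -0.52. Of the Igfbp1 UMIs in H19-high expansion cells, 43.6% came from 5 cells, and of those of Apoa2 and Spp2 42.8% and 39.5%. For Igf2 the 5 highest H19-high cells held 19.5% in expansion and 21.7% in induction medium.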

How the data were processed

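Single-cell libraries were made with the 10x Genomics Chromium protocol, per the labels' protocols, 1 per medium. The authors deposited UMI counts as whole numbers, for each gene and barcode and without normalization, with Cell Ranger 2.1.1 and the mouse build mm10 named in the submitters' processing notes. The annotation release is not given in the sources used here. Cells with under 500 genes or over 25% mitochondrial UMIs were left out (17 expansion, 30 induction). The H19-high cells, gene lists, rules and alternatives were chosen with earlier results of these data known.

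UMIs were summed over H19-high and over other cells and divided by the group total to give CPM. Ratios carry exact conditional binomial intervals, levels exact Poisson intervals and shares exact Clopper-Pearson intervals, all at 95%. PCR duplicates are collapsed by UMIs, and the intervals cover counting error only. Cells of 1 library are not replicates, so no p-value was computed. A count of 0 was set to 3 UMIs over the group for a bound. Genes that could be named were the 12 with the largest ratio per direction among counted genes of at least 50 CPM, the 12 per direction counted in both media, any gene of the imprinted, IGF axis, fetal liver and regulator lists, the most abundant and the 2 with the largest ratio of each other list, the 10 most correlated with H19, and 5 per cluster. Serpinc1 and Prox1 lie outside these rules and were picked with their values known.

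Thinning to 2000 UMIs per cell, without replacement and with a fixed seed, served the shares of cells and the correlations. Leiden clustering, without H19, Igf2 and Meg3, used scanpy 1.11.5 (with igraph 0.11.9). Doublets were not removed. The ratio code was tested on simulated data. The scripts ran under Python 3.11.15 with pandas 2.3.3, scipy 1.17.1 and numpy 2.4.6. Overlapping genes and near-identical copies share reads, so their split is uncertain. Alternatives covered the cell filter, the share of cells taken, the ranking, the totals, the minimum level and ratio, and the class or cluster of the cells; 5 of the 20 were added after the data had been seen.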

Additional observations from a re-analysis of the deposited data

Results flagged for a closer look

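Serpina3k was called in opposite directions in the classes of induction cells, on few UMIs in the H19-high Xist cells. By the ranking over the library the 84 H19-high Xist cells held 10 Serpina3k UMIs in 6 cells. The 42 Xist cells chosen again, down to 4010 CPM of H19, are among these 84. The Y cells chosen again reached down to 153 CPM. With the top 10% by H19 chosen again within each class, its log2 ratio of H19-high over other cells was -3.32 (-8.64 to -0.81) among Xist cells and 3.20 among Y cells. The difference between the classes was not tested. By the ranking over the whole library, 5 of the 338 other Xist cells held 81.6% of their 98 Serpina3k UMIs, and 5 of the 28 H19-high Y cells held 65.3% of their 196. By that ranking a Serpina3k UMI was found in 7.14% of H19-high and 4.44% of other Xist cells. Among Y cells the shares were 53.6% and 12.7%.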

How the results depend on the processing

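Over the 20 alternatives, 312 of 321 values of single genes, which stand for 19 pairs of a gene and a medium, and 146 of 150 list medians kept their direction; not every alternative gives each value. Keeping the direction does not mean keeping the call: Spp1, Tmsb4x, Spp2, Sprr1a, Tuba1a, Tat, Arg1 and Meg3 each fell short of the limit, or had an interval that includes 0, under at least 1 alternative. For expansion medium the numbers of higher and lower genes, 48 and 44, became 179 and 188 with the top 5% of cells, 6 and 5 with the top 20%, 101 and 78 with thinning before ranking, 88 and 118 with totals free of mitochondrial, ribosomal protein and H19 UMIs, 133 and 120 with a minimum of 10 CPM, 17 and 15 with 50 CPM, 7 and 6 with a ratio of 2, and 196 and 181 with at least 10 H19 UMIs. Higher genes numbered 20 with at least 1000 genes and at most 10% mitochondrial UMIs, 25 when ranked within 5 bins of depth, 76 with equal weight per cell, 180 in Y cells and 122 within a cluster. Lower genes numbered 68 when ranked on part of the UMIs and 189 in Xist cells. In the order of these settings the log2 ratio of Igf2 was 2.89 (top 5%), 1.64 (top 20%), 2.35 (thinned), 2.98 (10 H19 UMIs), 2.15 (1000 genes), 2.26 (depth bins), 2.59 (equal weight), 2.48 (Y), 2.05 (cluster), 2.25 (part of the UMIs), 2.46 (Xist) and 2.11 without the 10 cells highest in H19.

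For induction medium the 271 higher and 261 lower genes became 60 and 77 with the top 20%, 106 and 134 with 50 CPM, and 36 and 92 with a ratio of 2. Higher genes numbered 128 in Y cells and 122 within cluster 6, and lower genes 154 without cluster 4. Igf2 gave 4.77 (top 5%), 3.26 (top 20%), 4.66 (thinned), 4.65 (10 H19 UMIs), 4.63 (1000 genes), 4.31 (depth bins), 4.64 (equal weight), 4.15 (Xist), 3.59 (Y), 5.25 (cluster 6) and 4.27 without the 10 cells highest in H19. Values on the other side of 0 were those of Sprr1a in expansion medium (0.35 with the top 20%, 0.29 in Xist cells), Ccl5 (0.12, thinned), Serpina3k (-3.32) and Xist (-0.24) in Xist cells of induction medium, and, within the cluster with most H19-high cells, secreted proteins (-0.06 in expansion medium), and in induction medium Serpina3k (-0.45), Tat (-0.47), Spp1 (0.77), Xist (-0.27), and the medians of amino acid enzymes (-0.30), secreted proteins (-0.09) and dedifferentiation genes (0.06). The cause of these shifts was not tested. Only 237 induction cells had an H19 UMI, so the top 20% took in cells without an H19 UMI.

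No paired analysis was possible because each medium has 1 library. Intervals cover counting error, and nothing here estimates the spread between cultures or animals. The depth of induction cells was 3.43-fold lower, so H19 shares were not compared between media.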

Other observations

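A few genes that brake the cell cycle were lower in H19-high cells of each medium, and some genes that drive G1 were lower in induction medium. Over all genes counted, 1.16% were higher and 1.06% lower in expansion medium, and 5.75% and 5.54% in induction medium. Of the cell cycle inhibitors and p53 targets, 0 were higher and 2 lower of 13 in expansion medium, and 1 was higher and 4 lower of 14 in induction medium, with medians of -0.21 and -0.49. Cdkn2a, which encodes the inhibitors p16 and p19, was at 49.2 and 74.5 CPM in H19-high and other cells of expansion medium and at 17.2 and 59.5 CPM in induction medium. Cdkn2b, which encodes a related inhibitor, was at 7.37 and 29.9 CPM in induction medium. Of the G1 cyclins, their kinases and Myc, 3 of 6 were lower there, Ccnd2, Cdk4 and Cdk6, and 0 of 5 were counted in expansion medium. Among Xist and Y cells of induction medium 9 and 3 of 14 inhibitors and p53 targets were lower, with the top 10% chosen again in each class, and 1 and 3 of 6 genes of G1. Over all genes 5.92% and 4.69% were lower there. Cluster 6 of expansion medium, which Cdkn2a leads with Sprr1a and Ly6d, held 8 H19-high cells of 134. Cluster 4, which held 0 H19-high cells in both media, was also rich in Cdkn2a. It had 286 CPM against 64.1 CPM in the rest of the expansion cells and 302 against 29.3 CPM in induction medium. The part of these cells in the Cdkn2a ratios was not tested.

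Chemokines and other NF-kB targets were lower in 5 of 18 cases in induction medium, with a median of -0.10, and in expansion medium, which held TNFa, 1 of 21 was higher and 1 lower, with a median of -0.05. Ccl2, which attracts monocytes, was at 154 and 358 CPM in induction medium, and Cxcl3, which attracts neutrophils, at 6.15 and 42.2 CPM. Within classes 4 of 18 were lower among Xist and 5 of 18 among Y cells, with 1 higher in each. Over all genes of induction medium 5.75% were higher and 5.54% lower. The shares were 4.97% and 5.92% among Xist cells and 2.83% and 4.69% among Y cells. In expansion medium they were 1.16% and 1.06%. Of 13 genes of xenobiotic metabolism 4 were higher in induction medium (5.75% over all genes), among them Cyp3a11, a major drug-oxidising enzyme, at 3560 and 1863 CPM. With the top 10% chosen again, 1 was higher and 1 lower of 14 among Xist cells, with a median of 0.03, and 2 were higher and 2 lower of 12 among Y cells, with a median of 0.24. Cyp3a11 gave log2 ratios of 0.60 and 0.90. Of 9 hepatocyte transcription factors 3 were higher there, Nr1h4, the bile acid receptor, Rxra, its partner, and Prox1, while in expansion medium 0 of 7 were counted. Within classes 1 of 10 was higher among Xist cells and 1 of 8 among Y cells. Rxra gave 0.30 and 0.47 and Prox1 0.54 and -0.11, all short of the limit, and Nr1h4 gave 0.83 and 0.80.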
